A study of Mus musculus with 10 samples.

Results

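*Ptx3*-low capillary lymphatic endothelial cells (LECs) were the LECs of mouse ear skin with a capillary profile and little or no transcript of *Ptx3*, the gene of a secreted pattern-recognition protein. They were picked by read counts and not by clustering. From wells with at least 50000 reads, at least 200 detected genes and at most 10% mitochondrial reads, a cell counted as a LEC when the summed CPM (read counts scaled to the total of the cell) of *Prox1*, *Flt4* and *Mmrn1* reached 300 and exceeded those of the blood endothelial genes *Flt1*, *Emcn* and *Podxl*. LECs were then left out in a fixed order. Cells with a summed CPM of 500 or more over the 7 cell-cycle genes *Mki67*, *Top2a*, *Ccnb1*, *Ccnb2*, *Cdk1*, *Cdc20* and *Prc1* were called cycling. Cells with *Cldn11* at 300 CPM or more were called valve, cells with less *Lyve1* than *Mmrn2* collecting, and cells with at least 2 of *Ptn*, *Thbd* and *Plvap* at 100 CPM or more intermediate. Of the rest, 153 cells with *Ptx3* at 100 CPM or more were called *Ptx3*-high and 344 were *Ptx3*-low capillary LECs. These 344 stood among 1641 LECs, 3248 wells of sufficient quality and 3456 wells in all.

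The cells came from 5 *Pik3caH1047R;Cdh5-CreERT2* mice and 2 control mice, all 5 wk old, and had been sequenced by Smart-Seq2, which reads the full length of the cDNA of each sorted cell without molecular barcodes. Mutant mice carried a Cre-inducible *Pik3caH1047R* transgene in the Rosa26 locus and had received 4-hydroxytamoxifen (4-OHT) on the ear skin at 3 wk of age. The *Cdh5* promoter drives CreERT2 in blood and lymphatic endothelium alike, so that the mutation was not limited to LECs or to any LEC subtype, and which cells had recombined was not measured here. Control 1 was an untreated C57BL/6J mouse and control 2 a littermate without Cre that received 4-OHT, and a further control mouse was not analysed here. Cells had been stained for podoplanin and CD31 and sorted without those positive for CD45, CD11b, Ter119 or a dead-cell dye. The labels call every well a sorted LEC, while the methods of the study name both LECs and blood endothelial cells. Of the passing wells, 1607 were no LECs by the rule, with a median of 6.13 CPM of Pdpn, the podoplanin gene, and 2950 of the blood endothelial gene *Plvap*. Each mouse gave 1 plate, or 2 plates for mutants 3 and 5.

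Lymphatic capillaries are the blind-ended vessels that take up interstitial fluid, macromolecules and leukocytes. Their endothelial cells carry the hyaluronan receptor LYVE1, lie on a sparse basement membrane, are joined by discontinuous button-like junctions, and secrete the chemokine CCL21, which guides dendritic cells into the vessel. Activating mutations of PIK3CA, the catalytic p110α subunit of phosphoinositide 3-kinase, are found in lymphatic malformations, overgrown vessels of this kind.

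The 7 mice gave 19 to 74 *Ptx3*-low capillary LECs each, with a median of 229308 to 424582 reads and 4351 to 6995 genes per cell and 1.07 to 1.76% mitochondrial reads. Their summed reads ran from 5161219 in mutant 1 to 27424124 in mutant 5. No passing well held the same counts as another. Plates were numbered in 2 series, one for mutants 1 to 4 and one shared by the controls and mutant 5, so that genotype and plate series cannot be told apart except through mutant 5. Keratinocyte and fibroblast markers stood higher in both controls than in any mutant in these cells, and the sums of the other lists overlapped between the groups. The summed CPM of 10 keratinocyte markers was 367 and 1406 in the controls and 22.1 to 329 in the mutants, that of 10 fibroblast markers 360 and 338 against 29.3 to 107, and that of 8 Schwann cell markers 252 and 32.9 against 6.88 to 39.6. Mural markers stood at 293 and 27.2 against 20.1 to 102, immune markers at 11.9 and 6.06 against 3.10 to 44.96, and blood endothelial markers at 945 and 874 against 813 to 1065. Immediate-early genes, which respond to tissue dissociation, summed to 5940 and 3261 CPM in the controls and 2544 to 5065 in the mutants. The part of these differences in the results below was not tested.

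The label was first compared with the 5 genes that name it. Of these the rule used *Lyve1* and *Mmrn1*, so that their levels inside and outside the class were partly set in advance. In the median *Ptx3*-low capillary LEC, *Lyve1* (chromosome 7, 110850607–110863239, GRCm38) stood at 2650 CPM, *Mmrn1*, which encodes a multimerin of the matrix (chromosome 6, 60924976–60989378), at 3491, *Fgl2*, encoding a fibrinogen-like protein (chromosome 5, 21372642–21378374), at 2744, *Prelp*, encoding a small leucine-rich proteoglycan (chromosome 1, 133910304–133921414), at 1625, and *Reln*, encoding the secreted glycoprotein reelin (chromosome 5, 21884454–22344702), at 834. All 344 cells had a *Lyve1* read, and 96.8% had a *Reln* read. In the 1607 wells that were no LECs, the medians of the same genes were 33.7, 22.3, 17.6, 29.3 and 4.05 CPM. A low level of a LEC gene in a cell of this data can therefore be background, and 97.95% of those wells also had a *Lyve1* read. Divided by exon length, as reads per kilobase and per total of reads (RPKM), the highest mean levels over the 7 mice among the genes listed for this report were those of *Cldn5*, a tight junction protein (1746 ± 199 RPKM, SD, n = 7), *Ccl21a* (1122 ± 214) and *Lyve1* (925 ± 242). *Fgl2* came next (706 ± 186), and *Mmrn1* (579 ± 133) and *Prelp* (505 ± 106) lay lower. *Cldn5* stood above *Ccl21a* by more than either SD, while *Ccl21a* and *Lyve1*, and *Lyve1* and *Fgl2*, were closer to each other than the larger of their SDs. The 5 genes were high in every mouse, with 1 low value, a median of 591 CPM of *Lyve1* in mutant 1 against 2317 to 3028 in the other mice. In the median collecting LEC, *Prelp* stood at 1626 CPM, *Mmrn1* at 2521, *Fgl2* at 2165, *Reln* at 336 and *Lyve1* at 92.8. *Prelp* was thus as high in collecting as in *Ptx3*-low capillary LECs. *Reln* was lower there, as was *Lyve1*, by which the rule cut the collecting class.

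The limits of the rule cut through graded values. No *Ptx3* read was found in 137 of the 344 cells, 193 lay above 0 and under 50 CPM, and 14 between 50 and 100 CPM. The highest *Ptx3* value inside was 96.6 CPM and the lowest outside 101 CPM, and 20 of the 153 *Ptx3*-high cells lay under 200 CPM. *Cldn11*, a claudin of valve cells, reached 286 CPM inside and began at 308 outside, and the cell-cycle sum reached 496 inside and began at 512 outside. Of the 344 cells, 262 had 1 of *Ptn*, *Thbd* and *Plvap* at 100 CPM, 17 had less than 2 times as much *Lyve1* as *Mmrn2*, and 112 had no read of the 7 cell-cycle genes. A *Ptx3* read was present in 60.2% of *Ptx3*-low capillary LECs (median depth 291845 reads) and in 40.8% of the wells that were no LECs (median depth 259011 reads). By mouse, the share of these cells with such a read was 32.4 and 56.7% in the controls and 94.7, 40.0, 71.2, 48.4 and 95.1% in mutants 1 to 5. Their median depth was 288534 and 298835 reads in the controls, 253854 in mutant 1 and 424582 in mutant 5. In wells that were no LECs, the median of *Ptx3* was 6.12 CPM in mutant 1, 2.85 in mutant 5 and 0 in the other mice. The part of depth and of background in these shares was not tested. After thinning to 50000 reads, 313 of the 344 kept their class. *Mmrn2*, a gene of the collecting class, reached 100 CPM in 79 of the 344 cells (22.97%), and these cells had a median of 3163 CPM of *Fgl2* and 2852 of *Lyve1*, next to 2472 and 2474 in the others. *Mmrn2* is not particular to collecting LECs, as its median was 1061 CPM there and 873 CPM in the wells that were no LECs. *Foxp2*, by which the study named collecting vessel LECs, had a median of 4.83 CPM in the 79 cells and 2.72 in the others. By *Mmrn2* alone, a minority of the population thus held a capillary transcript and one shared by collecting LECs and wells that were no LECs. The part of blood endothelial transcripts or of doublets in these cells was not tested.

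*Ptx3*-low capillary LECs made up a smaller share of the LECs in each mutant mouse than in either control. The share was 40.4% in control 1 (74 of 183 LECs, 95% Wilson interval 33.6 to 47.7) and 34.3% in control 2 (60 of 175, 27.7 to 41.6). It was 10.3% in mutant 1 (19 of 184, 6.71 to 15.6), 21.4% in mutant 2 (40 of 187, 16.1 to 27.8), 16.3% in mutant 3 (59 of 363, 12.8 to 20.4), 17.0% in mutant 4 (31 of 182, 12.3 to 23.2) and 16.6% in mutant 5 (61 of 367, 13.2 to 20.8). These intervals cover counting error only. The groups did not overlap, and mutant 5, on plates of the same number series as the controls, had a share within the range of the other mutants. The mean was 16.3% ± 3.94 (SD, n = 5) in mutant and 37.4% in control mice, a difference of -21.0 percentage points with p = 0.0952 by a two-sided exact permutation test over 21 splits of the mice. That p is 2 times the smaller tail and is the lowest that 5 and 2 mice allow on this count. Counted over splits with an absolute difference at least as large, a choice added after seeing the data, the exact permutation p was 0.0476. It was 0.0667 to 0.1667 with any 1 mouse left out. Each of these is the lowest that its number of mice allows. The side of 0.05 thus depends on how the p is counted and on the number of mice. With cycling cells left out of the total, the difference was -19.6 percentage points. The other classes took up different parts of the total: cycling LECs were 2.19 and 2.29% in the controls and 9.09 to 16.3% in the mutants, and intermediate LECs 26.2 and 29.1% against 33.2 to 44.7%. *Ptx3*-high LECs, with 4.92 and 12.6% against 5.44 to 13.2%, overlapped between the groups. That class holds only cells left after the cycling and intermediate classes were set apart, and these also held *Ptx3*. In intermediate LECs, mouse medians of *Ptx3* were 0.0 and 3.46 CPM in controls and 19.1 to 128 in mutants. In cycling LECs they were 0.0 and 67.3 (4 cells in each control) against 143 to 170. The share of all LECs with *Ptx3* at 100 CPM or more was not counted. A share falls when other classes grow, and the sort fixed the number of wells. Fewer *Ptx3*-low capillary LECs and more LECs of other classes thus cannot be told apart. In valve LECs, set apart before the limit on *Ptn*, *Thbd* and *Plvap*, mouse medians of *Thbd* were 21.7 and 3.76 CPM in controls and 58.6 to 623 in mutants. Those of *Ptn* were 10.4 and 4.72 against 229 to 640, and those of *Plvap* 123 and 510 against 320 to 850. A cell with more of these genes is counted as intermediate, and the part of that in the share was not tested.

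**Figure D1:**
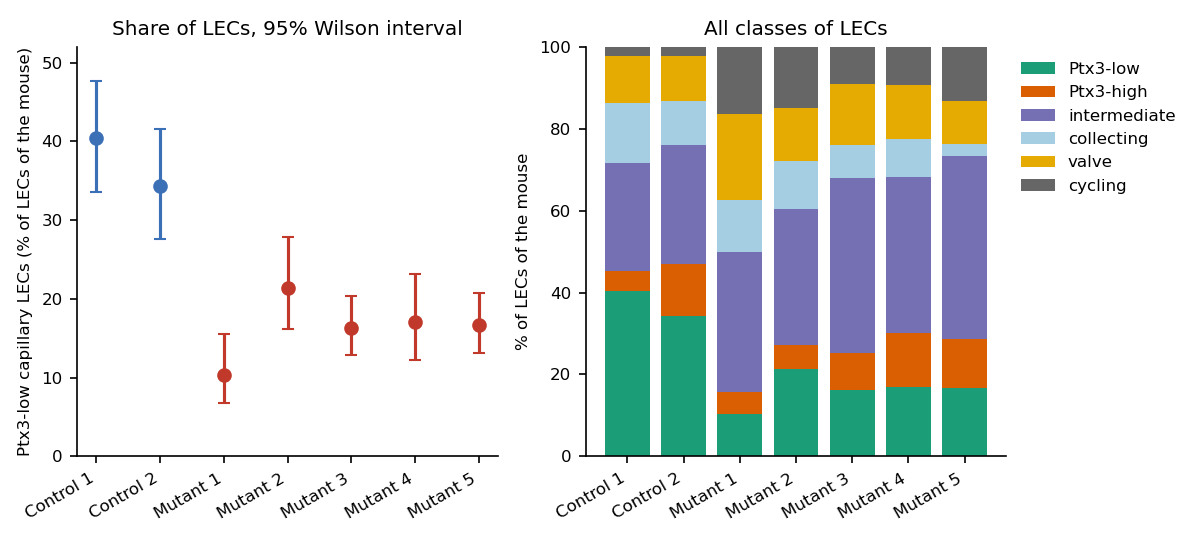
Left, *Ptx3*-low capillary LECs as a percentage of all LECs of each mouse, with 95% Wilson intervals; right, the shares of all 6 classes. The controls stand at 40.4 and 34.3% and the mutants between 10.3 and 21.4%, and the cycling and intermediate classes are larger in every mutant mouse.

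The next comparison set the summed reads of *Ptx3*-low capillary LECs beside those of the other 1297 LECs of the same mouse. Because both were cut by expression in these same cells, with limits set when results were known, the differences describe the classes and are not tested. The edgeR fit passed 58 genes as higher (0.38% of 15251) and 68 as lower (0.446%) at an adjusted p under 0.05, and nothing is read from these counts. Without 1 mouse edgeR passed 28 (without mutant 3) to 206 (without control 1) in both directions together. DESeq2 passed 465 (3.05%) and 949 (6.22%), and 428 genes (2.81%) were higher and 433 (2.84%) lower in all 7 mice. *Reln*, *Fgl2* and *Prelp* stood higher in *Ptx3*-low capillary LECs, and cell-cycle genes, *Nrp2* and 3 of 26 valve genes lower. The keratinocyte, fibroblast, mural, immune and Schwann cell marker lists had median log2 differences of -1.06, -1.10, -1.03, -2.89 and -1.64. EdgeR passed 0 of their genes. Not every mouse had this direction. Keratinocyte markers summed to 367 and 1406 CPM against 246 and 352 in the controls and to 22.1 to 329 against 112 to 497 in the mutants. In the controls, Schwann cell markers were at 252 and 32.9 against 26.7 and 38.2 CPM, and mural markers at 293 and 27.2 against 114 and 195. The part of these transcripts in the comparison was not tested.

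*Reln* showed the largest difference of the 5 naming genes. In control 1 it stood at 1210 CPM in *Ptx3*-low capillary LECs and 913 in the other LECs, in control 2 at 1017 and 802. In mutants 1 to 5 the pairs were 1619 and 475, 1136 and 396, 1069 and 432, 1305 and 357, and 609 and 234. All 7 mice showed the same direction, with a wider gap in each mutant than in either control, and the fitted log2 difference was 1.23 ± 0.19 (SE). *Fgl2* differed by 0.96 ± 0.14, *Prelp* by 0.70 ± 0.11, *Mmrn1*, which the rule used, by 0.65 ± 0.10 and *Lyve1*, also used, by 0.36 ± 0.08, each higher in 7 of 7 mice.

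Genes with the largest positive differences by the rule for named genes had varied roles. *Thbs1*, the matrix glycoprotein thrombospondin 1, differed by 1.78 ± 0.34 on the log2 scale, and 19.7% of its summed CPM in *Ptx3*-low capillary LECs came from 1 cell. *Depp1* differed by 1.52 ± 0.26 and *Enpp3*, an ectonucleotide phosphodiesterase, by 1.48 ± 0.20. *Piezo2*, a mechanically gated ion channel, stood at 293 and 189.8 CPM against 173 and 179 in the controls and at 155 to 279 against 46.3 to 92.0 in the mutants, a difference of 1.34 ± 0.23. *Gucy1a1*, the α1 subunit of soluble guanylate cyclase, differed by 1.30 ± 0.16, *Tril* by 1.26 ± 0.17 and *Antxr2* by 1.25 ± 0.21. These genes were higher in 7 of 7 mice.

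Rule genes are left out of the counts of every list. In the capillary list, 12 of 23 genes were passed as higher by edgeR and 18 by DESeq2, and 0 as lower by either, with a median of 0.83 beside -0.11 over all genes. The study chose that list on these samples. Besides *Reln*, *Fgl2*, *Enpp3* and *Piezo2* the 12 were *Tppp3*, *Slco2b1*, an organic anion transporter, *Stmn2*, *Serping1*, the C1 inhibitor of complement, *Sult1a1*, *Sept4*, *Selenop* and *Thy1*, with log2 differences of 0.68 to 1.18. Of 32 basement membrane and matrix genes, 7 were passed as higher and 0 as lower, although 5 were lower by DESeq2. Beyond *Reln*, *Fgl2* and *Prelp* they were *Lamb1*, a laminin chain (0.73 ± 0.11), *Col18a1* (0.67 ± 0.13), *Ltbp4* (0.56 ± 0.10) and *Timp3*, an inhibitor of matrix metalloproteases (0.45 ± 0.08). *Ccl21a*, the chemokine gene, was the 1 of 31 leukocyte trafficking genes that passed, at 1020 and 1041 CPM against 874 and 881 in the controls and 579 to 1213 against 439 to 829 in the mutants (0.40 ± 0.07). Rhob, an early-response GTPase, passed as higher (0.66 ± 0.09), as did the sodium channel gene *Scn3a* (1.17 ± 0.19) from the study's *Ptx3* capillary list.

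Cell-cycle genes made up the largest negative differences, as the rule left cycling cells out. *Pimreg*, *Shcbp1*, *Nek2*, *Bub1b*, *Cdca3*, Aurka and *Cdca8* differed by -6.68 to -5.13, with *Tspan32* at -6.38. When cycling cells were also left out of the other LECs, 19 genes were passed as higher and 18 as lower. *Nrp2*, a coreceptor for VEGFC and semaphorins, stood lower in every mouse, at 221 and 357 CPM against 269.8 and 491 in the controls and 350.5 to 536 against 778 to 1040 in the mutants (-0.83 ± 0.13). *Olfml2a*, of the olfactomedin family, differed by -1.66 ± 0.17, and *Bcam*, the Lutheran adhesion molecule of the collecting list, by -1.03 ± 0.15. From the 26 valve genes, 3 were passed as lower, *Rasd1* (-1.30 ± 0.25), *Fbln2*, which encodes the matrix protein fibulin 2 (-0.84 ± 0.16), and *Nts*, the gene of the neuropeptide neurotensin (-0.95 ± 0.18). None of the genes tested from the lists of capillary junctions (18), uptake receptors (12), PI3K-AKT-mTOR components (31) or FOXO-responsive genes (28) was passed by edgeR. The same held for glycolysis (22), sterol synthesis (30), interferon response (24) and MHC class I (19). DESeq2 passed 1 to 4 of each, beside 3.05% of all genes as higher and 6.22% as lower, and nothing is read from these counts.

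A closer comparison is that with the 153 *Ptx3*-high LECs, which differ from *Ptx3*-low capillary LECs by the *Ptx3* limit alone. The *Ptx3*-high sums held 9 and 22 cells in the controls and 10, 11, 33, 24 and 44 in mutants 1 to 5. By edgeR 24 genes were higher in *Ptx3*-low capillary LECs (0.194% of 12389) and 32 lower (0.258%), and by DESeq2 511 (4.12%) and 283 (2.28%). Without mutant 3, edgeR passed 7 in all. In all 7 mice 358 genes (2.89%) were higher and 250 (2.02%) lower. This is again a description of classes cut in these cells. *Fgl2*, *Prelp*, *Lcn2* and *Dab2* stood higher, and *Npnt*, *Mmp2*, *Nrp2* and the D-type cyclins lower.

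*Fgl2* was at 3365 and 2490 CPM in the *Ptx3*-low and 1843 and 1401 in the *Ptx3*-high class of the controls. In mutants 1 to 5 it was at 1979, 2873, 3021, 3553 and 1505 in the *Ptx3*-low and at 1552, 946, 802, 516 and 312 in the *Ptx3*-high class. The *Ptx3*-low values of the groups overlapped and every mouse had the same direction, with the smallest gap in mutant 1, for a log2 difference of 1.51 ± 0.27. *Prelp* differed by 0.85 ± 0.12 and *Reln* by 1.06 ± 0.25, both in 7 of 7 mice, although *Reln* was passed by DESeq2 and not by edgeR. *Mmrn1* (0.46 ± 0.19, higher in 4 of 7 mice), *Lyve1* (-0.28 ± 0.12, higher in 1 of 7) and *Ccl21a* (0.03 ± 0.09) were not passed by either. Of the 5 naming genes, *Fgl2*, *Prelp* and *Reln* were thus higher in the *Ptx3*-low class of every mouse, and *Mmrn1* and *Lyve1* were not.

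Other genes higher in *Ptx3*-low capillary LECs included *Lcn2*, the iron-siderophore binding lipocalin, at 679 and 612 CPM against 238 and 274 in the controls and at 509 to 868 against 49.7 to 240.3 in the mutants (1.80 ± 0.27). *Dab2*, an adaptor of clathrin-dependent endocytosis, was at 307 and 303 CPM against 122 and 133 in the controls and 198 to 598 against 131 to 339 in the mutants (1.08 ± 0.16). *Dab2* was the 1 higher gene of 11 uptake receptors and adaptors tested, and the macrophage mannose receptor gene *Mrc1* the 1 lower (-1.97 ± 0.24, lower in 7 of 7 mice). *Kcnk5*, a potassium channel gene, had the largest difference by the rule for named genes (5.82 ± 0.66), although only 38 of the 344 cells, and 2 of the 153 *Ptx3*-high cells, reached 10 CPM. The flavin monooxygenase genes *Fmo2* (4.62 ± 0.84) and *Fmo1* (2.79 ± 0.48), *Pdlim3* (4.30 ± 0.79), *Ccdc3* (3.98 ± 0.67), *Nudt4* (2.16 ± 0.38) and *Pkhd1l1* (2.14 ± 0.34) completed, with *Lcn2*, the 8 largest. The study's collecting list had 5 higher and 1 lower of 24 genes: *Ccdc3*, *Fmo2*, *Tm4sf1* (1.20 ± 0.13), *Tgm2*, a transglutaminase (1.01 ± 0.16), and *Serpine2*, an inhibitor of thrombin and urokinase (1.76 ± 0.28), were higher and *Sparc*, a matrix glycoprotein, lower (-1.54 ± 0.18). That list too was chosen by the study on these samples. Of the rule genes, *Mmrn2* (2.52 ± 0.38) and the endomucin gene *Emcn* (1.36 ± 0.17) were higher as well. Without the 79 cells that had *Mmrn2* at 100 CPM or more, a comparison added after seeing the data, 11 genes were passed as higher and 18 as lower. *Ccdc3*, *Lcn2*, *Prelp*, *Tm4sf1*, *Dab2* and *Emcn* were still passed, and *Fgl2* (1.46 ± 0.28), *Fmo2*, *Kcnk5*, *Pdlim3*, *Serpine2* and *Tgm2* were not.

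*Npnt*, which encodes the integrin α8β1 ligand nephronectin, was lower in the *Ptx3*-low class of every mouse. It stood at 8.67 and 2.46 CPM in the *Ptx3*-low and 161 and 84.9 in the *Ptx3*-high class of the controls. In the mutants the *Ptx3*-low values were 52.5 to 279 and the *Ptx3*-high values 598 to 1125. Mutant *Ptx3*-low values thus reached those of the control *Ptx3*-high class, and the log2 difference between the classes was -3.24 ± 0.45. *Mmp2*, a gelatinase, was at 215 and 177 against 600.0 and 505 CPM in the controls and at 144 to 391 against 561 to 884 in the mutants (-1.70 ± 0.18), and the membrane-bound *Mmp14* differed by -0.98 ± 0.15. *Nrp2* differed by -1.46 ± 0.22. The D-type cyclin genes *Ccnd1* (-1.25 ± 0.16) and *Ccnd2* (-1.15 ± 0.15), which link growth signals to entry into the cell cycle, were the 2 lower of 25 genes of the G1 and S phase list. *Adam12*, a metalloprotease (-3.46 ± 0.59), *Olfml2a* (-2.40 ± 0.24), *Cd276*, an immune checkpoint ligand also called B7-H3 (-2.20 ± 0.38), *Ggct* (-2.05 ± 0.32), the water channel gene *Aqp1* (-1.61 ± 0.21) and *Emilin1* (-0.84 ± 0.15) were lower in 7 of 7 mice. Of 45 genes of the study's *Ptx3* capillary list, chosen by the study on these samples, 11 were passed as lower, among them *Cotl1*, *Asap1* and *Serinc2*, and 0 as higher by edgeR or DESeq2, with 39 of 45 below 0 and a median of -0.61 beside 0.13 over all genes. Interferon-stimulated genes (17 of 22 above 0, median 0.79) had 0 passed by edgeR and 5 by DESeq2, and sterol and fatty acid synthesis genes (21 of 29 below 0, median -0.60) 0 and 2. Expression of 10 blood endothelial markers summed to 813 to 1065 CPM in *Ptx3*-low capillary LECs and to 254 and 462 (controls) and 920 to 1283 (mutants) in the *Ptx3*-high class. Keratinocyte markers summed to 367 and 1406 CPM against 91.7 and 50.2 in the controls and to 22.1 to 329 against 6.60 to 80.6 in the mutants, with 7 of 7 genes tested above 0, a median of 1.97 and 2 passed by DESeq2. Fibroblast markers, at 360 and 338 against 1366 and 377 CPM in the controls and 29.3 to 107 against 15.8 to 149 in the mutants, were higher in the *Ptx3*-high class of control 1. *Mmp2*, *Sparc* and *Emilin1* were higher in the *Ptx3*-high class of 7 of 7 mice. Mural markers were at 293 and 27.2 against 167 and 672 CPM in the controls, and immune and Schwann cell markers overlapped between the classes. The part of these transcripts in the differences was not tested.

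The comparison of mutant with control mice within *Ptx3*-low capillary LECs asks which genes of this capillary class differed in *Pik3caH1047R* skin. At an adjusted p under 0.05, edgeR called 0 of 15678 genes (0.0%), with 1154 at an unadjusted p under 0.05 (7.36%) and a lowest adjusted p of 0.133. DESeq2 called 267 as higher (1.7%) and 236 as lower (1.51%) among the same genes. In 812 genes (5.18%) every mutant mouse lay above both controls and in 1174 (7.49%) below. The genes of this comparison are therefore given as values and not as changes, and where DESeq2 alone called one, that is said.

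The 5 naming genes overlapped between the groups. *Lyve1* was at 2962 and 2335 CPM in the controls and 1142 to 2822 in the mutants, with a log2 difference of -0.20 ± 0.30. *Reln* was at 1176 and 991.5 against 600.1 to 1537 (0.03 ± 0.30), *Fgl2* at 3385 and 2491 against 1561 to 3584 (-0.19 ± 0.29), *Mmrn1* at 4203 and 2890 against 2228 to 4086 (-0.08 ± 0.26) and *Prelp* at 1979 and 1378 against 1115 to 2249 (0.18 ± 0.27). Adjusted p by edgeR was 0.961 to 0.995 for these 5. *Ccl21a* (-0.05 ± 0.26) and *Cldn5* (0.07 ± 0.18) overlapped too. With plate series as a covariate, which leaves the mutant difference to mutant 5 against the controls, several of these values were negative: *Reln* -0.85 ± 0.29, *Fgl2* -0.91 ± 0.34, *Mmrn1* -0.67 ± 0.32, *Prelp* -0.59 ± 0.24 and *Ccl21a* -0.81 ± 0.23, while *Lyve1* was at 0.09 ± 0.43. Their unadjusted p by edgeR was 0.0157 for *Reln*, 0.0250 for *Fgl2*, 0.0631 for *Mmrn1*, 0.0357 for *Prelp* and 0.00605 for *Ccl21a*, and the adjusted p was 1.0 for each. The near-zero differences over all mice thus depend on the mutants of the other plate series. *Ptx3*, limited by the rule, was at 1.47 and 4.98 CPM against 3.71 to 17.3. Endogenous *Pik3ca* had 15.9 and 28.7 CPM in the controls and 25.5 to 47.8 in the mutants (0.73 ± 0.58, adjusted p = 0.886 by edgeR). The transgene carries chicken PIK3CA sequence, which was not analysed here.

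The genes that follow were chosen after their values were seen, as those with the lowest edgeR p among genes called by DESeq2, with no overlap between the groups and a mean log2 CPM of at least 6. Nfkbie encodes IκBε, an inhibitor that holds NF-κB in the cytoplasm and is itself an NF-κB target (chromosome 17, 45555703–45563169). Its level was 15.4 and 26.3 CPM in the controls and 103, 160.3, 139, 135.5 and 108 in mutants 1 to 5. Every mutant mouse lay above 3 times the higher control, and the log2 difference was 2.63 ± 0.40 (adjusted p = 0.133 by edgeR and 8.51e-11 by DESeq2). *Npnt* (chromosome 3, 132881745–132950291) was at 8.72 and 2.46 CPM in the controls and 220.2, 74.98, 52.4, 183 and 290 in mutants 1 to 5 (4.87 ± 0.91, adjusted p = 0.153 by edgeR). In the controls, 72.7% of its summed CPM came from 1 cell. *Rmnd5b* had 60.7 and 37.4 CPM in the controls and 177 to 304 in the mutants (2.24 ± 0.35).

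Nfkbie and *Ptx3*, one high in mutant *Ptx3*-low capillary LECs and the other the gene that sets this class apart, are shown with their promoters (RefSeq, GRCm38.p6), from 250 bases before to 50 after the start site on the plus strand, to let a reader see the 9-letter NF-κB-type motif GGGNNTTCC, in capitals. It was searched on both strands. The *Ptx3* window is chr3:66219637-66219936, with the motif on the minus strand from base 252, counted from 1 at the 5′ end. The Nfkbie window is chr17:45555450-45555749, with the motif on the plus strand from base 146.
*Ptx3*: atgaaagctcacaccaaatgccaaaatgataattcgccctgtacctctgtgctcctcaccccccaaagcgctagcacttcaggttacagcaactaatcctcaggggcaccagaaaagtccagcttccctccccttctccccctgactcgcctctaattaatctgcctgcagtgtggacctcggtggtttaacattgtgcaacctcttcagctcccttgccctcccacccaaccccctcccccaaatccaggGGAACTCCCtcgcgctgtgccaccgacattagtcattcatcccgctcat
Nfkbie: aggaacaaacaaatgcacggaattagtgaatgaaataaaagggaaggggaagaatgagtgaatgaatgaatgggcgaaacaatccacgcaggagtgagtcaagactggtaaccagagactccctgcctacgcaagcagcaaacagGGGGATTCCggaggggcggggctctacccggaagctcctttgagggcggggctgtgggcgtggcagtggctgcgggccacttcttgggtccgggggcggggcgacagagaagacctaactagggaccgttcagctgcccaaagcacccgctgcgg
The motif was found in 5.72% of 27025 promoters of this length. It was in 4 of 24 promoters of genes lower in *Ptx3*-low than in *Ptx3*-high LECs (*Ptx3* included), in 0 of 18 of those higher and in 0 of 4 of the naming genes with a promoter available. The rest of the 32 lower and 24 higher genes had no promoter available. *Ptx3*, which holds the motif, is among the lower genes because the rule cut the classes on it. No enrichment is read from these counts. A match is a description of the letters and not a binding site, and the pair was chosen after values were seen.

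Of 32 genes of the basement membrane and matrix list, 23 lay above 0, 8 had every mutant above both controls (5.18% of all genes did), and DESeq2 called 5 as higher and edgeR 0, with a median of 0.40 beside 0.00 over all genes. *Col4a1*, a chain of basement membrane collagen, was at 467 and 536 CPM in the controls and 873 to 1184 in the mutants (1.06 ± 0.20), *Lamc1*, a laminin chain, at 246 and 265 against 385 to 687 (1.09 ± 0.26), and *Eln*, elastin, at 190.1 and 246 against 355 to 492 (1.01 ± 0.23). *Itgb1*, the integrin β1 chain, had 597 and 549 CPM in the controls and 948 to 1126 in the mutants (0.86 ± 0.17). Besides *Col4a1* and *Lamc1*, the 5 were *Col4a2* (0.78 ± 0.20), *Lamb2* (0.74 ± 0.26) and *Lama5* (1.78 ± 0.62). Cytoskeletal genes with the same pattern were *Tagln2* (559.9 and 492.5 against 859 to 1261 CPM), *Pls3* (1.20 ± 0.27), *Dbn1* (1.37 ± 0.33), *Lasp1* (0.91 ± 0.22) and *Dpysl3* (1.88 ± 0.43). *Myadm*, a membrane raft protein, had 478 and 440 CPM against 778 to 1034.

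*Ccnd1*, encoding cyclin D1, had 90.8 and 149 CPM in the controls and 204 to 398 in the mutants (1.39 ± 0.35, adjusted p = 0.223 by edgeR and 0.0132 by DESeq2). The G1 and S phase list held 19 of 28 genes above 0, 4 called as higher by DESeq2 and 0 by edgeR, with a median of 0.42. Of the cell-cycle genes limited by the rule, *Cdk1* was at 0.0890 and 0.0986 CPM in the controls, under the level of 3 reads, and at 4.02 to 12.7 in the mutants. *Il2rg*, the common γ chain of cytokine receptors, was at 42.9 and 46.3 CPM against 98.95 to 276, and *Bcl6b*, a transcriptional repressor, at 49.4 and 51.2 against 124 to 213. In metabolism, *Pgam1*, a glycolytic enzyme, was at 125 and 136.5 CPM against 238 to 313 (1.06 ± 0.24) and *Scd2*, a fatty acid desaturase, at 88.95 and 85.0 against 167 to 220 (1.21 ± 0.26). Of 23 glycolysis and pentose phosphate genes 19 lay above 0 and 6 had every mutant above both controls, *Gapdh*, *Pgk1*, *Eno1*, *Pkm*, Pfkp and *Pgam1*. DESeq2 called 3 and edgeR 0, with a list median of 0.50. Sterol and fatty acid synthesis genes (21 of 30 above 0, median 0.31) had 1 called as higher by DESeq2, *Scd2*, and 1 as lower.

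In the PI3K-AKT-mTOR list, 22 of 31 genes lay below 0 (median -0.27), 0 were called by edgeR, and DESeq2 called 1, *Pik3cb*, as lower, at 5.16 and 7.49 CPM in the controls and at most 1.21 in the mutants. *Akt1* and *Mtor* overlapped between the groups. FOXO-responsive genes, which AKT represses through FOXO factors, lay evenly around 0 (14 of 28 above, median 0.02), with 0 called by edgeR and 1 by DESeq2. The study's *Ptx3* capillary list, chosen by the study on these samples, stood higher in mutant *Ptx3*-low capillary LECs, with 35 of 45 genes above 0, a median of 0.31, 11 with every mutant above both controls, 9 called by DESeq2 and 0 by edgeR. *Olfml2a* (94.0 and 80.2 against 168 to 512 CPM), *Ccnd1*, *Cotl1*, *Serinc2*, *Cd276*, *Fgfr1* and *Sorbs2* were among the 9. Several of these, with *Npnt*, were also the genes lower in *Ptx3*-low than in *Ptx3*-high cells. The 2 comparisons share the *Ptx3*-low sums. The study's capillary list had 18 of 23 genes below 0 (median -0.16), with 0 called by edgeR or DESeq2 and 1 at an unadjusted p under 0.05.

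Lower values in every mutant mouse were found for *Cst3*, the protease inhibitor cystatin C (968 and 1017 against 435 to 568 CPM, -0.92 ± 0.17), *Nrep* (271 and 431 against 106 to 151.5, -1.49 ± 0.27) and Mylk, myosin light chain kinase (204 and 181 against 86.7 to 117, -0.93 ± 0.26). The ribosomal protein genes *Rpl27a*, *Rps9*, *Rps25*, *Rps23*, *Rpl13*, *Rps3* and *Rpl14* had log2 differences of -1.36 to -0.62. *Rps9*, as an example, was at 713 and 974 CPM in the controls and 409 to 606.0 in the mutants. Keratin genes had the lowest values relative to the controls. *Krt2* was at 155 and 324 CPM against 0.185 to 3.30 and *Krt10* at 91.9 and 239 against 0.556 to 17.7, and *Krt2* reached 10 CPM in 67 of 134 control and 4 of 210 mutant cells, beside 12.8% of wells that were no LECs. All 9 keratinocyte markers tested and all 9 fibroblast markers tested lay below 0, with medians of -3.59 and -2.41.

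**Figure D2:**
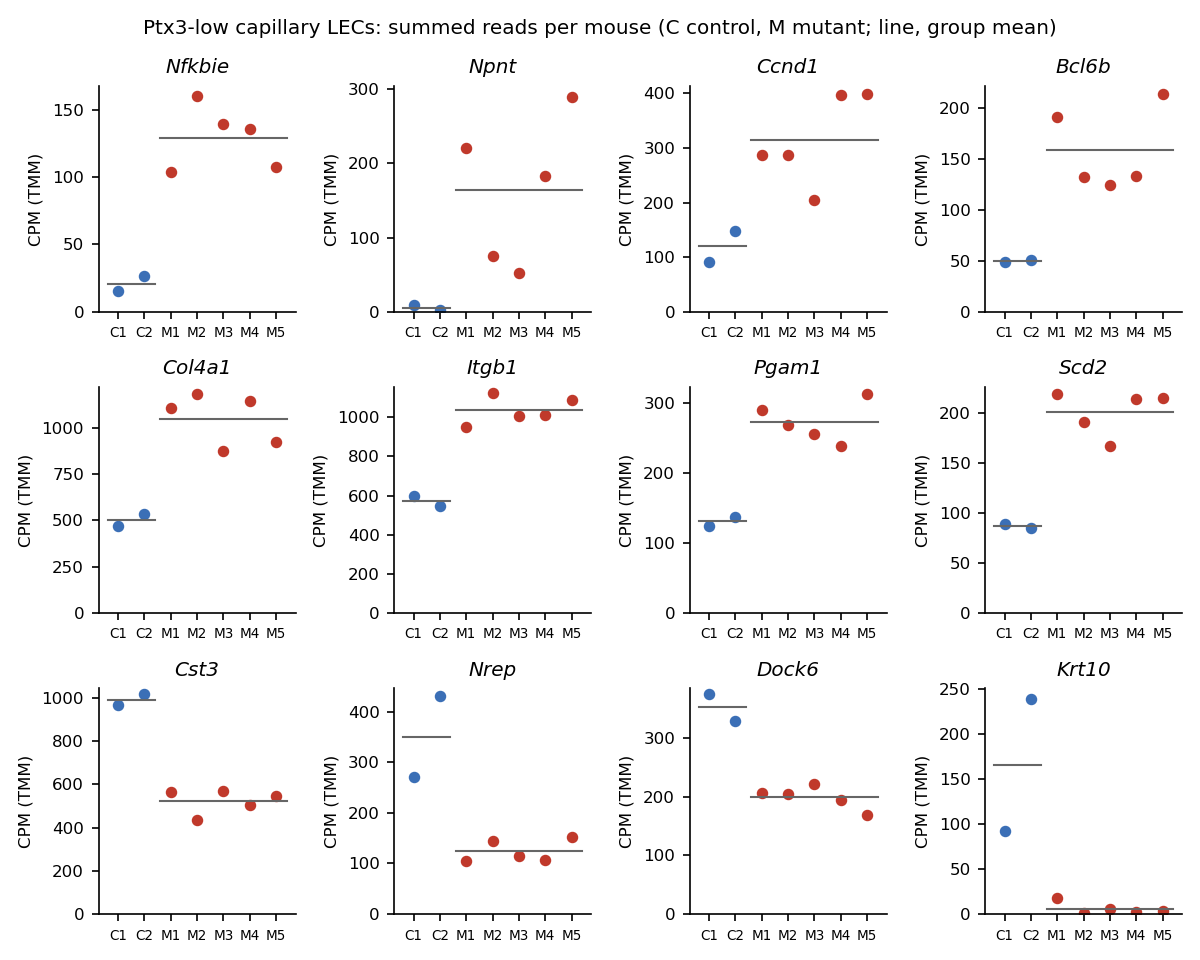
CPM of 12 genes in the summed *Ptx3*-low capillary LECs of each mouse, controls (C1, C2, blue) and mutants (M1 to M5, red), with the group mean as a line and linear axes from 0. Nfkbie to *Scd2* lie higher in all 5 mutants, *Cst3*, *Nrep*, *Dock6* and *Krt10* lower, and edgeR called none of the 12.

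Mutant 5 shared the plate number series of the controls. Its values alone were set against them in a comparison added after seeing the data, in which it is assumed to vary like the controls. Apart from *Reln* and *Fgl2*, the genes given here did not overlap between the groups over all mice, mutant 5 included. Their direction in mutant 5 was thus fixed beforehand, and only the size of the differences is described. The log2 differences were 2.37 ± 0.68 for Nfkbie, 5.69 ± 0.82 for *Npnt*, 1.74 ± 0.49 for *Ccnd1*, 2.09 ± 0.50 for *Bcl6b*, 0.88 ± 0.40 for *Col4a1*, 0.93 ± 0.40 for *Itgb1*, 1.27 ± 0.44 for *Pgam1*, 1.31 ± 0.48 for *Scd2*, -0.85 ± 0.42 for *Cst3* and -1.21 ± 0.51 for *Nrep*. *Lamc1* (0.59 ± 0.43) and *Tagln2* (0.71 ± 0.41) were smaller there than over all mice (1.09 and 1.02), and the naming genes *Reln* (-0.85 ± 0.43) and *Fgl2* (-0.91 ± 0.43) were lower. The ribosomal genes were nearer to 0 there, with -0.43 ± 0.43 for *Rpl13* and -0.47 ± 0.44 for *Rps9*. *Krt2* (-9.69 ± 0.99) and *Krt10* (-5.61 ± 0.93) stayed low. Within the series edgeR called 0 genes, with 830 at an unadjusted p under 0.05, and with plate series as a covariate over all mice 0, with 674. DESeq2 was not run on either.

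**Figure D3:**
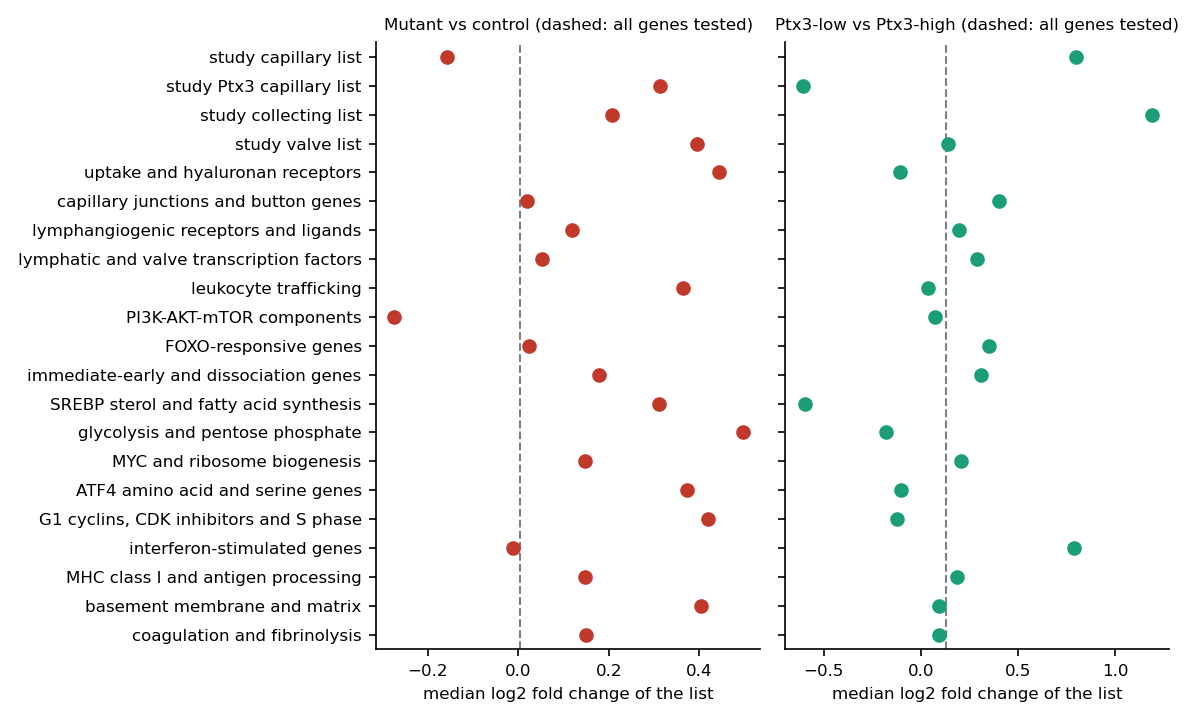
Median log2 difference of each gene list in mutant against control mice within *Ptx3*-low capillary LECs (left) and in *Ptx3*-low against *Ptx3*-high LECs within mice (right), with the median of all genes tested as a dashed line. Glycolysis (0.50), G1 and S phase (0.42) and matrix genes (0.40) lie to the right on the left panel, and the study's collecting list (1.19) and *Ptx3* capillary list (-0.61) lie at opposite ends of the right panel.

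Whether the difference between mutant and control mice was itself different in *Ptx3*-low capillary LECs and in the other LECs was tested with the mouse as a block. By edgeR 0 of 19266 genes passed (0.0%), 1157 had an unadjusted p under 0.05 (6.01%), and the lowest adjusted p was 0.228. DESeq2 called 119 (0.618%) as positive and 166 (0.862%) as negative. *Reln*, chosen after its values were seen, shows the kind of pattern in question. In the other LECs it was at 913 and 802 CPM in the controls and 234 to 475 in the mutants, without overlap, and in *Ptx3*-low capillary LECs at 1210 and 1017 against 609 to 1619, with overlap. The log2 difference of these differences was 1.16 ± 0.17 (adjusted p = 0.356 by edgeR and 0.000553 by DESeq2). *Cd300lg*, a mucin-like endothelial receptor, had 615 and 201 CPM in the other LECs of the controls and 61.9 to 159 in those of the mutants, and 522 and 178.5 against 149.5 to 485 in *Ptx3*-low capillary LECs (1.72 ± 0.20, adjusted p = 0.228 by edgeR). Nfkbie (0.78 ± 0.26), *Npnt* (0.60 ± 0.77) and *Ccnd1* (-0.19 ± 0.27) were called by neither tool, so that a mutant difference particular to *Ptx3*-low capillary LECs was not shown for them. The other LECs of the mutants held more cycling and intermediate cells than those of the controls, and the part of that makeup in these values was not tested.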

How the data were processed

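Single ear-skin cells, sorted after staining for podoplanin and CD31 as lymphatic and blood endothelial cells, had been sequenced by Smart-Seq2 in 9 plates from 7 mice. The deposited values are read counts per gene and well. As stated by the authors, reads were aligned with TopHat2 2.1.1 to GRCm38 with chicken *PIK3CA* added, duplicates were removed with SAMtools 0.1.18 and reads were counted with featureCounts. The annotation version is not given in the sources used here. Without molecular barcodes, amplified copies count as reads.

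Here, spike-in reads were left out, wells were filtered at 50000 reads, 200 genes and 10% mitochondrial reads, and no doublet caller was run. Symbols and positions came from GENCODE vM21 (46005 of 46517 genes). Members and gene lists were chosen with earlier results of these data known. Counts of the cells of a class were summed per mouse, at least 5 cells per sum, and fitted with edgeR 4.0.16 (quasi-likelihood, TMM, low-count filter, mouse as block within mice, R 4.3.3), with Benjamini-Hochberg adjustment over all genes tested and a limit of 0.05. DESeq2 1.42.0 was the alternative, and the 51 to 206 genes per comparison whose DESeq2 coefficients did not converge got no p. CPM are TMM-scaled within each comparison and differ slightly between comparisons. Each mouse was a replicate, and shares were compared by an exact permutation test (2 times the smaller tail). Named genes were the rule genes, the naming genes, the 8 largest passed in each direction within mice (mean log2 CPM of at least 3, same sign in every mouse), passed genes of each list, and *Pik3ca*. In the mutant comparison the rule named no called gene, and genes outside it are given as chosen after their values were seen. A few genes that the rule or the lists name are not reported here. The scripts were tested on simulated data.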

Additional observations from a re-analysis of the deposited data

Results flagged for a closer look

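In the mutant mice, 47 values of named genes in Ptx3-low capillary LECs were examined for a mouse that stood apart, by the gap of the highest or lowest of the 5 mice to its neighbour over the range, with a limit of 0.71. Chance flags about 1 in 20, and 3 values passed. *Prelp* was lowest in mutant 5, at 1115 CPM against 1968 to 2249 in the other mutants. *Rps25* was highest in mutant 5, at 110.1 CPM against 61.5 to 73.9, and *Rpl13* also, at 361.5 CPM against 246 to 278. Mutant 5 was on plates of the number series that held the controls, and its cells had the highest median depth, 424582 reads. The part of either in these values was not tested.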

How the results depend on the processing

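For mutant against control mice, edgeR called 0 genes with either control or any mutant left out. It called 5 without the filter on low counts, 1 after thinning to 50000 reads, 1 on first plates, 7 with a stricter LEC limit and 9 with the replicate block. DESeq2 called 551 (267 higher and 284 lower) of all genes with its own filter, as are its counts here, whereas the counts given with the comparisons cover the genes that edgeR tested. The replicate block joins mice by the number in their sample titles alone. Deviations from the group mean of same-numbered control and mutant samples had r = 0.006 and -0.006 in 2 pairs. With 2 controls, their deviations are equal in size and opposite in sign, so that these values cannot decide whether mice were paired. No result is read from the count with that block. For Ptx3-low against other LECs, 126 genes were passed by edgeR, 1565 by DESeq2, 37 without cycling cells, and 28 to 206 with 1 mouse left out: 40, 35, 28, 40 and 46 without mutants 1 to 5 and 206 without control 1. For Ptx3-low against Ptx3-high LECs, 56 were passed by edgeR, 869 by DESeq2, 101 without the filter, 115 after thinning, 29 in cells with *Mmrn2* under 100 CPM, and 7 to 52 with 1 mouse left out: 17, 7, 21 and 33 without mutants 2 to 5. The test of unequal mutant differences gave 0 by edgeR, 2 on first plates and 285 by DESeq2. The difference in share kept its direction, from -17.96 (without control 1) to -24.11 (without control 2) percentage points with 1 mouse left out, and its p fell from 0.0952 to 0.0476 by an exact permutation test on the absolute difference (-21.04 points). Of single values, *Top2a* turned from lower to 0.47 without cycling cells in the other LECs, and *Mmrn2* to -1.37 where cells were limited on it, by construction. The causes of the other shifts were not tested.

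Limits: there are 2 control mice of different kinds, plate series and genotype overlap in mutant 5 only, mutant 1 gave 19 cells, and keratinocyte and fibroblast markers were higher in the controls.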
